A study of Mus musculus with 8 samples.

Results

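The 10 genes described here restrain growth in resting T cells. They are Txnip, Arrdc3, Ddit4, Sesn1, Sesn3, Tsc1, Tsc2, Btg1, Btg2 and Tob1, found by name in the array annotation, with no threshold on a measured value, and put together with earlier results of these data known. They are 10 of 29924 gene names on the array, and all 10 were among the 15764 genes tested. A gene was read from its brightest probe, and Txnip and Btg1 had another probe that served as a check.

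A resting T cell stays small and keeps its metabolism low until antigen and costimulation release it, and several kinds of brake keep that state. TXNIP and its relative ARRDC3 are arrestin-like proteins that limit glucose uptake and take receptors off the surface, and TXNIP also binds thioredoxin. The sestrins, DDIT4 and the TSC1/TSC2 complex all hold back the kinase complex mTORC1, which drives protein synthesis and growth, and the BTG and TOB proteins slow the cell cycle and help shorten the poly(A) tails of mRNAs. Follicular helper T (TFH) cells arise from naive CD4 T cells and follicular regulatory T (TFR) cells mostly from Treg cells, and both work in germinal centers, where T cells are activated and part of them divide.

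The study compared the transcriptomes of these follicular cells with those of their counterparts outside the follicle after immunization. The sorts of naive CD4 T, Treg, TFH and TFR cells were made from pooled peripheral lymph nodes (pLN), d12 and d25 after KLH in alum had been given s.c., and each sort gave 1 one-color Agilent array, 8 arrays in all. All mice were of the strain B6.Cg-Foxp3<tm1Mal>, whose Foxp3-expressing cells carry EGFP, were by the labels 8 to 14 weeks old and of both sexes, and by the labels 8 to 15 of them were pooled for a sort, of which 25 ng of RNA was used. The study's methods also give smaller pools, a slightly different age range and more than 1 sort per cell type and day. By the study's account, naive CD4 T cells were GFP- GL7- and Treg cells GFP+ GL7-, both PD1- in its methods and PD1lo in its results, TFH cells GFP- PD1hi GL7+ and TFR cells GFP+ PD1hi with or without GL7. All 4 cell types therefore came from immunized mice, and the naive CD4 T cells were defined by low or no PD1 and by the absence of GL7 and GFP.

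Per array, 18261 to 19867 of 39429 probes were well above background, and no spot was saturated. Foxp3 read 48593 to 49262 relative units (RU, the normalized signal) in Treg cells, 37266 to 37513 in TFR cells and 66 to 358 in the GFP- cells. Of the other listed markers of Foxp3+ cells, Lrrc32 (24757 to 33687 RU) and Il2ra (14489 to 28676 RU) were likewise high in both GFP+ cell types. In the GFP- cells they read 62 to 128 and 206 to 249 RU. Ikzf2 did not part the cells this way. It read 10506 and 10814 RU (d12, d25) in TFH, 9925 and 11103 in Treg, 22902 and 28617 in TFR and 81 and 145 in naive CD4 T cells. Cxcr5, the receptor that leads cells into follicles, read 182426 to 237465 RU in TFH, 35322 to 35810 in TFR and 1400 to 4384 in the other cells. Of 16 proliferation genes, 15 were tested, of which 12 rose in TFH and all 15 in TFR cells, and their summed level was 69152 to 70289 RU in naive CD4 T, 132549 to 147943 in TFH, 86254 to 90444 in Treg and 226572 to 248029 in TFR cells. The summed level of 10 B cell markers lay between 5852 and 16904 RU and was highest in TFH cells at d25. Of the tested markers of other cells, 1 of 7 for B cells, 1 of 3 for antibody-secreting cells, 1 of 5 for myeloid cells and 1 of 3 for CD8 and NK cells were higher in TFH than in naive CD4 T cells, and 1, 0, 1 and 1 were higher in TFR than in Treg cells. Lower were 0, 0, 2 and 1 of them in TFH and 0, 0, 0 and 2 in TFR cells. Jchain and Mzb1, markers of antibody-secreting cells, read highest on the d12 naive CD4 T array, at 7466 and 7639 RU. On the d25 array of these cells they read 1157 and 1352 RU. The part of such other cells in the results below was not tested.

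The 2 arrays of a cell type are its d12 and d25 sorts. Each difference below was fitted over both days with the day as a term, and its SE is the spread that cell type and day leave. A p-value therefore rests on how unequally the cell types changed from d12 to d25. A shift between the days that all cell types share is taken out. The d12 arrays share 1 slide. At d25 the Foxp3- cells lie on another slide and the Foxp3+ cells on a further one, so day and slide cannot be told apart, and a Foxp3+ against Foxp3- comparison is within a slide at d12 alone. In sorted bulk samples, fewer cells that express a gene and less RNA per cell cannot be told apart.

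Sequences upstream of 4 of the genes are shown, because 3 of these genes fell in both follicular cell types and the fourth, Btg1, shares with Txnip a forkhead motif, the letters that FoxO factors are known to bind. Each is the 250 bases before the start site in RefSeq (GRCm38.p6), 5′ to 3′ on the strand of the gene. Capitals mark matches on either strand to the forkhead motif GTAAACA, the CCAAT box CCAAT or the TATA box TATAAA, none of which overlap here. Txnip is from chr3:96557707-96557956 (+), Btg1 from chr10:96616751-96617000 (+), Tob1 from chr11:94211204-94211453 (+), and Sesn1, the first of 2 start sites, from chr10:41810324-41810573 (+).
Txnip: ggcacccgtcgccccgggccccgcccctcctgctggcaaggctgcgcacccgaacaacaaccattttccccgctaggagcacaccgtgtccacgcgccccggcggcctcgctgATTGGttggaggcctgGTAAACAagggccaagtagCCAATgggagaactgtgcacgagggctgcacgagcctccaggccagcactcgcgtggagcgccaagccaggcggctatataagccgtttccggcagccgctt
Btg1: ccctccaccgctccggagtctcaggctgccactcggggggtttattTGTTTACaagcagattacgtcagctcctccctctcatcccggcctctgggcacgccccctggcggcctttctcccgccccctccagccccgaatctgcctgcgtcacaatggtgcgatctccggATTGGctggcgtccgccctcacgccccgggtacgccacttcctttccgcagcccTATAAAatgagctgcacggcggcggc
Tob1: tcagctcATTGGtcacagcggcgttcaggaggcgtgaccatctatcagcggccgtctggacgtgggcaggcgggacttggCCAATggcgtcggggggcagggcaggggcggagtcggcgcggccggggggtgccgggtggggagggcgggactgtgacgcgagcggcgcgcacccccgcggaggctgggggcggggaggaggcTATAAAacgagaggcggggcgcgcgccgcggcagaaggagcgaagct
Sesn1: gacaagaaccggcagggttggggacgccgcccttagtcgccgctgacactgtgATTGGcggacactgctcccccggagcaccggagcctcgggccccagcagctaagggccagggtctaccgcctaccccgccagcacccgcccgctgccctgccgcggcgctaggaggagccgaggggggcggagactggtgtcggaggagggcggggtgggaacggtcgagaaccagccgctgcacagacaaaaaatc

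The forkhead letters stand at -121 in Txnip and at -204 in Btg1, counted back from the start site to the first base, and in none of the other members' windows. Of 32851 promoters of the same length, 3.17% hold them. CCAAT is in every window of the members except those of Tsc1, Tsc2 and 1 of 3 start sites of Arrdc3, and in 33.8% of all promoters. TATAAA is in Btg1 at -26 and in Tob1 at -47, and in 12.4% of all promoters. The E-box CACGTG, found in 6.02% of all promoters, is in no member's window, and the cAMP response element TGACGTCA is in that of Btg2 alone at -166, against 1.55% of all promoters. Only these exact letters were searched, on either strand, so a window without a match can still hold a variant of a motif. A match is a run of letters and not a measured binding site.

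In TFH against naive CD4 T cells, 3 of the 10 genes fell, Txnip, Sesn1 and Tob1, and Ddit4 rose. Of all genes tested, 25.6% fell and 20.9% rose in this comparison, so that a member count of 3 lower and 1 higher is near the background in number. In TFR against Treg cells, Txnip, Sesn1 and Tob1 fell as well and none rose, against 20.9% lower and 18.7% higher among all genes. The median log2 difference of the 10 genes was -0.23 in TFH and -0.26 in TFR cells, and that of all genes was -0.07 and -0.08. Groups did not overlap for 4 of the 10 genes in TFH against naive CD4 T cells (68.1% of all genes) and for 6 of 10 in TFR against Treg cells (69.6%).

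**Figure D1:**
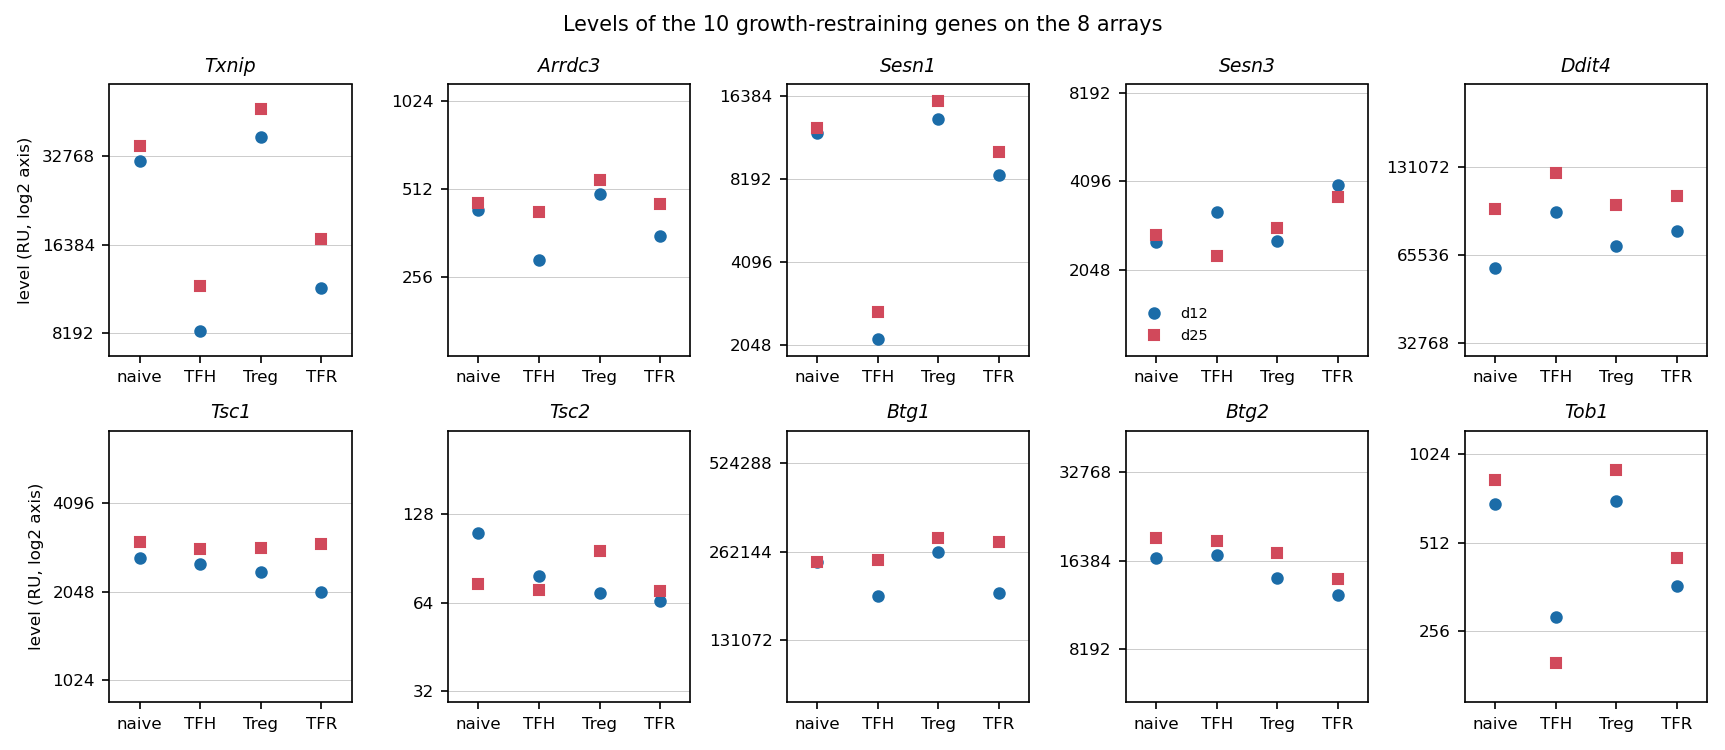
Levels of the 10 genes in relative units (RU, log2 axis), each from its brightest probe, in naive CD4 T, TFH, Treg and TFR cells, with 1 point per array (circles d12, squares d25). Txnip, Sesn1 and Tob1 sit lower in both follicular cell types than in their counterparts, and Sesn1 lies far lower in TFH (2144 and 2684 RU) than in TFR cells (8486 and 10242 RU). Heights are not comparable between panels, since probes differ in brightness.

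Among the arrestin-like genes, Txnip fell in both follicular cell types by about the same amount. Its probe at chr3:96365147-96365206 (+, build NCBI37) read 31494 RU at d12 and 35664 at d25 in naive CD4 T cells, 8302 and 11843 in TFH, 38160 and 47515 in Treg, and 11653 and 17101 in TFR cells. All 4 follicular arrays are below all 4 of the others. The level was 3.38-fold lower in TFH than in naive CD4 T cells, a log2 difference of -1.76 ± 0.12 (SE, n = 2 arrays per cell type; limma adjusted p = 0.000693). In TFR against Treg cells it was 3.02-fold lower, -1.59 ± 0.12 (limma adjusted p = 0.00167). Only 3.49% of all genes fell further than Txnip in TFH and 2.39% in TFR cells. The 2 falls differed by 0.16 ± 0.17 on the log2 scale, which missed the threshold (limma adjusted p = 0.619).

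Within the follicular and within the non-follicular cells, the Foxp3+ cells read higher. Txnip was 0.51 ± 0.12 higher in TFR than in TFH cells (log2; limma adjusted p = 0.0457), at both days, with arrays that overlap across the days. This call rests on all 8 arrays, since without any one of them the adjusted p was between 0.0578 and 0.225, and it was 0.267 without the day term, 0.183 with the slide in its place and 0.132 with all dim probes kept. Treg exceeded naive CD4 T cells by 0.35 ± 0.12, which missed the threshold (limma adjusted p = 0.159). The order of levels was thus Treg, naive CD4 T, TFR and TFH cells, of which Treg and naive CD4 T cells are neighbours that did not pass the test.

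The other probe of Txnip lies upstream in the same transcript, at chr3:96364206-96364265 (+, NCBI37), and is shown because it repeats the fall on other spots. Its 60 bases run without a stop codon in 2 of 3 frames.
Txnip probe: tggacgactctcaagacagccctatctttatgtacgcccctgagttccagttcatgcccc
It read 4734 and 5176 RU in naive CD4 T cells (d12, d25), 715 and 1638 in TFH, 5332 and 7842 in Treg and 1012 and 1553 in TFR cells. Again no follicular array reached any of the others. The log2 differences were -2.19 ± 0.26 in TFH against naive CD4 T (limma adjusted p = 0.00299, fitted over all probes) and -2.37 ± 0.26 in TFR against Treg cells (adjusted p = 0.00368). On this probe TFR and TFH cells differed by 0.21 ± 0.26 (adjusted p = 0.602), with TFR cells the higher at d12 and the lower at d25, and in the same fit the brighter probe gave 0.51 ± 0.13 (adjusted p = 0.0505).

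Arrdc3, the α-arrestin known for taking β2-adrenergic receptors into endosomes, moved the same way but did not pass the test. The probe at chr13:81034981-81035040 (+, NCBI37) read 433 and 460 RU in naive CD4 T, 293 and 427 in TFH, 492 and 547 in Treg and 353 and 456 in TFR cells. At each day the follicular cells were below their counterparts, most clearly at d12. The log2 differences were -0.34 ± 0.14 in TFH against naive CD4 T cells (limma adjusted p = 0.105) and -0.37 ± 0.14 in TFR against Treg cells (adjusted p = 0.0908).

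The α-arrestins that are not among the 10 went different ways. Arrdc4, a relative of Txnip that glucose is likewise known to induce, read 98 and 115 RU in naive CD4 T, 563 and 463 in TFH, 877 and 707 in Treg and 1413 and 1518 in TFR cells. It therefore rose where Txnip fell, by 2.26 ± 0.17 in TFH against naive CD4 T cells (limma adjusted p = 0.000829) and by 0.90 ± 0.17 in TFR against Treg cells (adjusted p = 0.0157). It was also 2.89 ± 0.17 higher in Treg than in naive CD4 T cells (adjusted p = 0.00196). Arrdc2 fell, by 1.06 ± 0.10 in TFH (adjusted p = 0.00142) and by 0.61 ± 0.10 in TFR cells (adjusted p = 0.00973). Arrdc1 read between 7230 and 11091 RU and passed the test in neither comparison, and no array measured Arrdc5 well above background.

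The sestrins carry the largest difference between the 2 follicular cell types. Sesn1, whose protein signals lack of leucine to mTORC1 through the GATOR complexes, read 12011 and 12493 RU in naive CD4 T cells on its probe at chr10:41628012-41628071 (+, NCBI37), 2144 and 2684 in TFH, 13514 and 15692 in Treg and 8486 and 10242 in TFR cells. The 4 cell types do not overlap. The fall in TFH cells was 5.11-fold, a log2 difference of -2.35 ± 0.10 (n = 2 arrays per cell type; limma adjusted p = 0.000215), and only 1.75% of all genes fell further. In TFR against Treg cells the fall was 1.56-fold, -0.64 ± 0.10 (limma adjusted p = 0.00897), and 14.5% of all genes fell further.

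The difference between these falls passed its own test. The change in TFR cells was 1.71 ± 0.14 above the change in TFH cells on the log2 scale (limma adjusted p = 0.00677), and Sesn1 was the only one of the 10 genes called here, against 8.49% of all genes (4.03% in this direction). Sesn1 was 3.89-fold higher in TFR than in TFH cells, 1.96 ± 0.10 (adjusted p = 0.000892), by 1.98 at d12 within 1 slide and 1.93 at d25. Without the d12 Treg array the test of the difference gave an adjusted p of 0.05, and without the d25 TFR array 0.0506, with estimates of 1.71 and 1.67. The smaller fall in TFR cells was no longer called without either Treg array or either TFR array (adjusted p of 0.0578 to 0.0704, estimates -0.61 to -0.68). The fall in TFH cells was called under every alternative run.

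**Figure D2:**
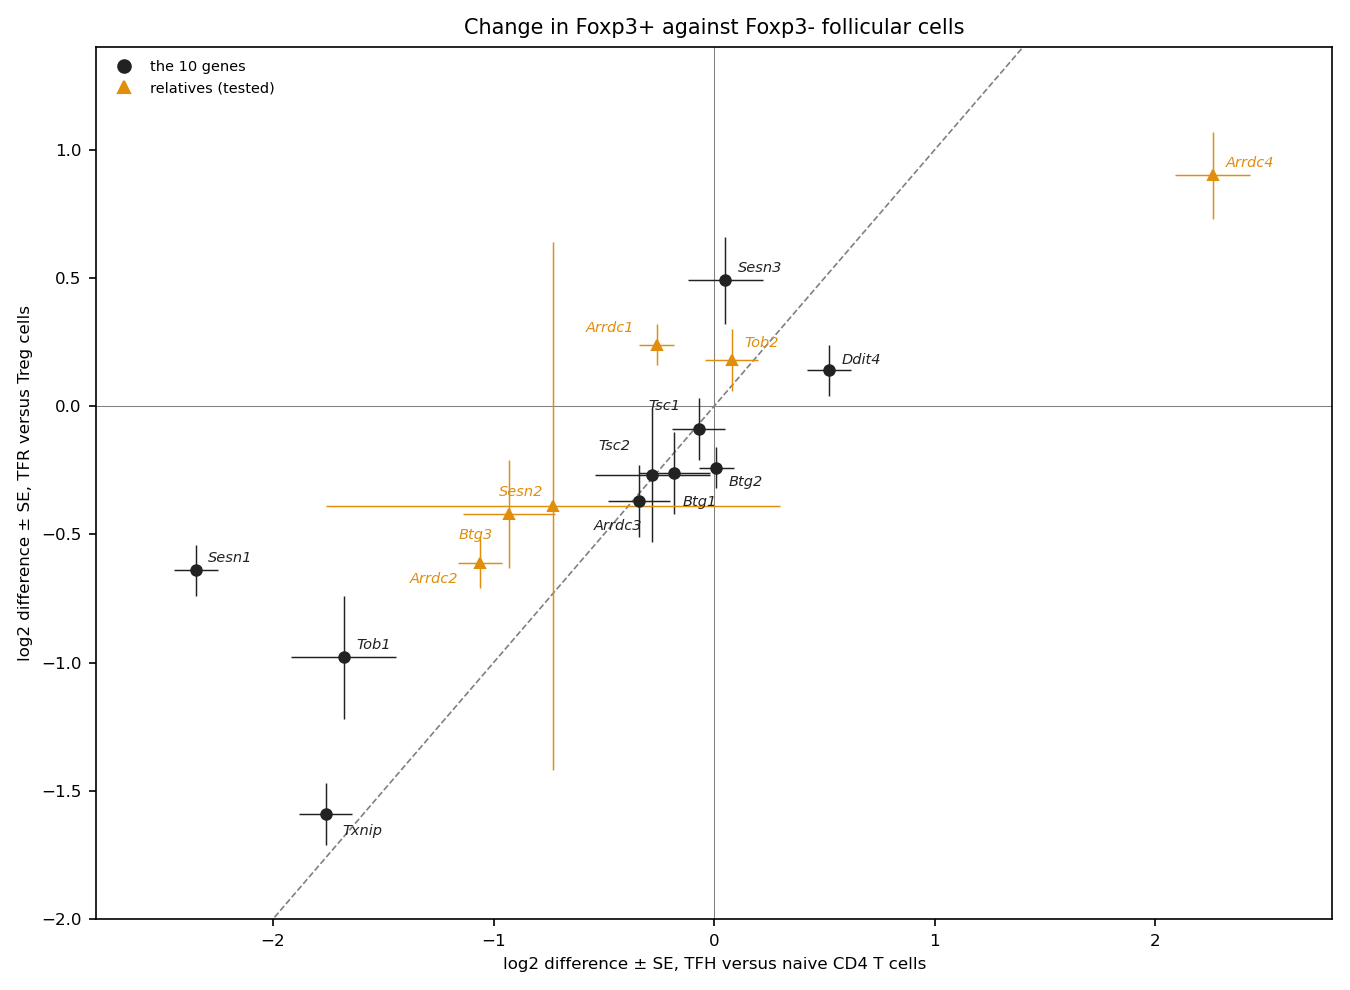
Log2 difference ± SE in TFH against naive CD4 T cells (x axis) and in TFR against Treg cells (y axis) for the 10 genes (circles) and the tested relatives of their families (triangles), with n = 2 arrays per cell type. The dashed line marks equal change. Sesn1 lies above the line at -2.35 and -0.64, Txnip lies near it at -1.76 and -1.59, and Arrdc4 is farthest to the right at 2.26 and 0.90.

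Sesn3, the sestrin known as a FoxO target, did not fall. Its probe at chr9:14130452-14130511 (+, NCBI37) read 2556 and 2690 RU in naive CD4 T, 3216 and 2291 in TFH, 2573 and 2839 in Treg and 3987 and 3638 in TFR cells. TFH cells were above naive CD4 T cells at d12 and below them at d25, whereas both TFR arrays exceeded all others. The log2 difference was 0.05 ± 0.17 in TFH against naive CD4 T cells (limma adjusted p = 0.836) and 0.49 ± 0.17 in TFR against Treg cells, which missed the threshold (adjusted p = 0.0795). Without either TFH array the latter was called (adjusted p = 0.0292). Sesn2, the stress-induced sestrin, read 891 to 8349 RU, with its extremes on the d25 and d12 arrays of Treg cells, and its difference of -0.73 ± 1.03 in TFH against naive CD4 T cells was smaller than its SE.

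Ddit4, the REDD1 protein that frees the TSC complex from its inhibitory partners under stress, was the only gene of the 10 that rose in TFH cells. The probe at chr10:59412486-59412545 (-, NCBI37) read 59450 and 93920 RU in naive CD4 T, 91811 and 124905 in TFH, 70214 and 96911 in Treg and 79097 and 104029 in TFR cells. At each day TFH cells were the highest and naive CD4 T cells the lowest, and every d25 array was above the d12 array of its cell type, so that the groups overlap across days. TFH cells exceeded naive CD4 T cells 1.43-fold, by 0.52 ± 0.10 on the log2 scale (limma adjusted p = 0.013), while TFR and Treg cells differed by 0.14 ± 0.10 (adjusted p = 0.325). The rise depended on single arrays and settings. The adjusted p was 0.0778 without the d12 naive CD4 T array, 0.0549 without the d12 TFH array, 0.237 without the day term, and 0.156 with an estimate of 0.31 when the quantile normalization was left out. No array measured its relative Ddit4l well above background.

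Neither Tsc1 nor Tsc2 showed a called change. Tsc1, which stabilizes TSC2, read 2051 to 3028 RU over the 8 arrays on its probe at chr2:28546610-28546669 (+, NCBI37), and the 4 cell types overlap. Its log2 differences were -0.07 ± 0.12 in TFH against naive CD4 T (limma adjusted p = 0.644) and -0.09 ± 0.12 in TFR against Treg cells (adjusted p = 0.592). Tsc2, the subunit that inactivates the mTORC1 activator Rheb, was dim on its probe at chr17:24732882-24732941 (-, NCBI37), with 65 to 111 RU, and was not well above background on the d25 array of naive CD4 T cells. Its differences of -0.28 ± 0.26 (adjusted p = 0.42) and -0.27 ± 0.26 (adjusted p = 0.445) were about as large as their SE.

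**Figure D3:**
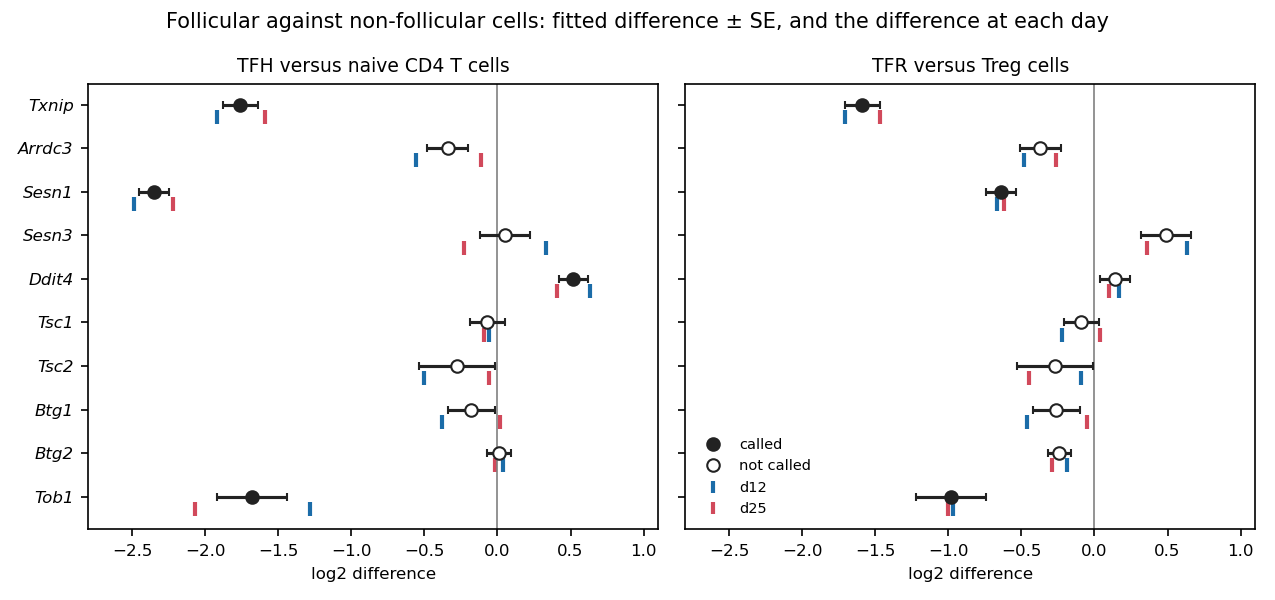
Fitted log2 difference ± SE of each gene in TFH against naive CD4 T cells (left) and TFR against Treg cells (right), n = 2 arrays per cell type, with filled circles for an adjusted p below 0.05, and the difference at d12 (blue ticks) and d25 (red ticks). Txnip, Sesn1 and Tob1 are filled on the left of 0 in both panels, and Ddit4 is filled on the right of 0 for TFH cells.

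Of the BTG and TOB genes, Tob1 fell. TOB1 is known for holding T cells unresponsive until they are costimulated. Its probe at chr11:94075956-94076015 (+, NCBI37) read 695 and 836 RU in naive CD4 T, 287 and 199 in TFH, 713 and 905 in Treg and 365 and 454 in TFR cells. The follicular arrays are all below the others, and TFH cells are below TFR cells. The log2 differences were -1.68 ± 0.24 in TFH against naive CD4 T cells, 3.19-fold (limma adjusted p = 0.0057), and -0.98 ± 0.24 in TFR against Treg cells, 1.97-fold (adjusted p = 0.0326). The second is less firm, since leaving out any array other than those of TFH cells gave an adjusted p of 0.0582 to 0.178, and keeping all dim probes gave 0.139. TFR exceeded TFH cells by 0.77 ± 0.24, which missed the threshold (adjusted p = 0.0881) except without the d12 TFH array (1.19, adjusted p = 0.01). Its paralog Tob2 read 4130 to 5163 RU and passed no test.

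Btg1, an anti-proliferative gene abundant in resting lymphocytes, gave different answers on its 2 probes. The brighter one, at chr10:96082071-96082130 (+, NCBI37), read 241079 and 242061 RU in naive CD4 T, 185541 and 246233 in TFH, 260331 and 292119 in Treg and 188746 and 282812 in TFR cells. At d12 the follicular cells were lower and at d25 they were level with or near their counterparts. The log2 differences were -0.18 ± 0.16 (limma adjusted p = 0.41) and -0.26 ± 0.16 (adjusted p = 0.261). The dimmer probe, downstream at chr10:96085358-96085417 (+), read 2952 and 3689 RU in naive CD4 T, 1150 and 1153 in TFH, 3786 and 2159 in Treg and 975 and 1068 in TFR cells. All follicular arrays were below all others there, with differences of -1.52 ± 0.29 (limma adjusted p = 0.0128, fitted over all probes) and -1.49 ± 0.29 (adjusted p = 0.0166).

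The brighter Btg1 probe stands between place 475 and 715 of 39429 probes. As for every probe, quantile normalization set its level from its rank alone. Scaled to the 75th percentile without quantile normalization, the probe read 344347 and 311109 RU in naive CD4 T, 182909 and 175771 in TFH, 292351 and 297387 in Treg and 193014 and 226971 in TFR cells. Both follicular cell types were then below their counterparts at both days, by 0.87 (adjusted p = 0.00412) and 0.49 (adjusted p = 0.0311) on the log2 scale. The fitted difference of Btg1 was negative in each of these readings, and its size and its call differ with the probe and the normalization.

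**Figure D4:**
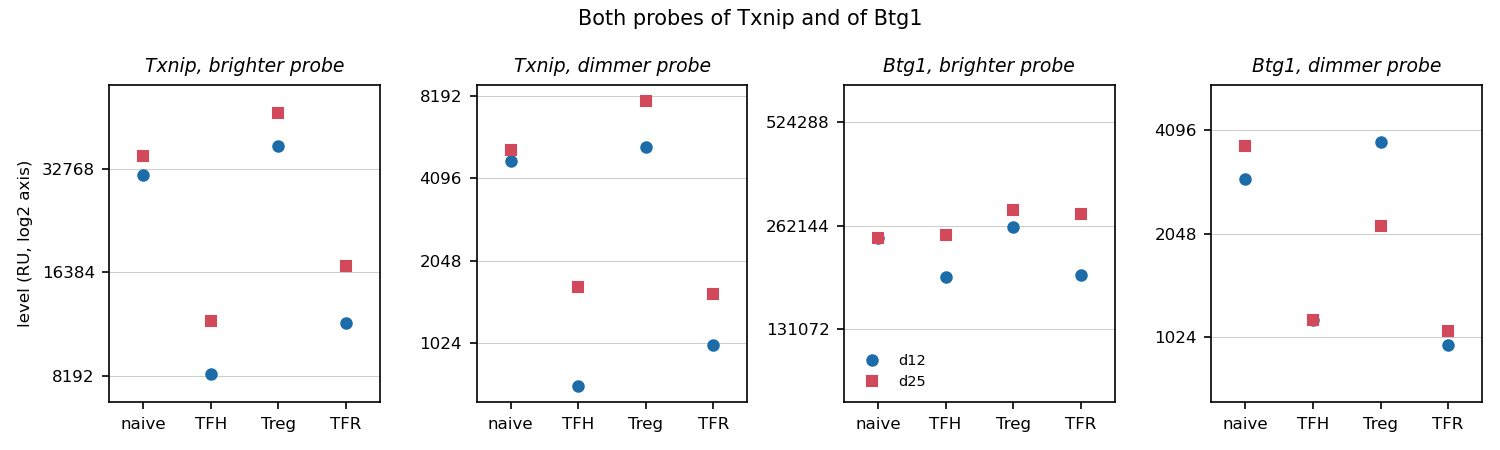
Levels (RU, log2 axis) on both probes of Txnip and of Btg1, 1 point per array (circles d12, squares d25). Both Txnip probes are lower in TFH and TFR cells, whereas for Btg1 the dimmer probe falls to between 975 and 1153 RU and the brighter one stays between 185541 and 292119 RU.

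Btg2, an early response gene that also carries the BTG domain, was not called in either follicular comparison. The probe at chr1:135972094-135972153 (-, NCBI37) read 16712 and 19522 RU in naive CD4 T, 17209 and 19201 in TFH, 14339 and 17406 in Treg and 12530 and 14199 in TFR cells. At both days the Foxp3+ cells were lower, with TFR cells the lowest. TFR cells were 1.36-fold below TFH cells, -0.45 ± 0.08 (limma adjusted p = 0.023), with -0.46 at d12 within 1 slide and -0.44 at d25. The call was lost without any one of the 8 arrays (adjusted p of 0.0537 to 0.135) and with the slide in place of the day (0.0966). In TFH against naive CD4 T cells the difference was 0.01 ± 0.08 (adjusted p = 0.939). In TFR against Treg cells it was -0.24 ± 0.08 (adjusted p = 0.0713) with no overlap of the arrays, and it passed with all dim probes kept (0.0419) and with a trended prior (0.0288). Btg3 fell in TFH cells, by 0.93 ± 0.21 (adjusted p = 0.0209), and was -0.42 ± 0.21 in TFR cells (adjusted p = 0.176), while Btg4 was well above background on none of the arrays.

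Between the Foxp3+ and Foxp3- cells outside the follicle, none of the 10 genes was called by limma, against 9.88% of all genes. At an unadjusted p below 0.05, a cutoff at which the share of all genes was not counted, only Txnip passed. Between TFR and TFH cells, Txnip and Sesn1 were higher in TFR cells and Btg2 lower, against 11.6% higher and 10.5% lower among all genes. The median log2 difference of the 10 genes was 0.11 in the first of these comparisons and 0.15 in the second, and that of all genes was -0.015 and -0.025. Groups did not overlap for 4 of 10 genes (54.1% of all genes) and for 5 of 10 (51.8%).

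From d12 to d25, 8 of the 10 genes had a positive difference, with a median of 0.25, against 0.004 over all genes. None was called, against 0.0698% of all genes. Ddit4 was the largest at 0.49 ± 0.07 (limma adjusted p = 0.0672), higher at d25 in all 4 cell types by 0.40 to 0.66. Txnip followed with 0.39 ± 0.09 (adjusted p = 0.0875), likewise higher in all 4. At an unadjusted p below 0.05 there were 6 genes, these and Arrdc3, Sesn1, Tsc1 and Btg2. The share of all genes at that unadjusted cutoff was not counted, so the 6 have no background to be read against.

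Over the 8 arrays, the Pearson r of log2 levels was 0.93 for Txnip and Tob1, 0.90 for Sesn1 and Tob1 and 0.86 for Txnip and Sesn1. It was as high for Arrdc3 and Btg1 (0.93) and for Txnip and Arrdc3 (0.86). Ddit4 had an r of -0.36 to -0.50 with Txnip, Sesn1 and Tob1. The arrays fall by cell type, so that the r values describe 4 cell types more than 8 independent points. Among 13298 genes well above background on all arrays, those most like Txnip were the gene of an unnamed probe (r = 0.9974), Irf9 (0.9938) and Hsh2d (0.9932). Those most like Sesn1 were Mgst2 (0.998), Pde8a (0.9945) and Ndrg1 (0.9922), those most like Tob1 were Gimap4 (0.9904), BC040756 (0.9904) and Rpl5 (0.9888), and those most like Ddit4 were Ube2e1 (0.9718), Olfr1466 (0.9646) and Zfp781 (0.9639).

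The genes on which these brakes act were counted in lists of their own, against 20.9% higher and 25.6% lower of all genes in TFH and 18.7% and 20.9% in TFR cells. In the list of mTORC1 and its TSC input, 2 of 10 tested genes rose and 5 fell in TFH against naive CD4 T cells, with a median of -0.24. Mtor, the kinase itself, rose by 0.94 and Tbc1d7, the third subunit of the TSC complex, by 1.25, while the Rheb relative Rhebl1 (-0.73), the mTOR partner Mlst8 (-0.65) and the mTOR inhibitor Deptor (-0.65) fell. In TFR against Treg cells 1 rose, Tbc1d7 (1.32), and 3 fell, Rhebl1 (-0.71), Mlst8 (-0.62) and the inhibitor Akt1s1 (-0.50), with a median of -0.03.

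In the amino acid branch through which sestrins act, 5 of 21 tested genes rose and 2 fell in TFH cells, and 1 rose and 3 fell in TFR cells, with medians of -0.04 and -0.11. The Ragulator subunit Lamtor4 rose in both (1.14 and 0.59), and the folliculin partner Fnip1 (-0.78 and -0.57) and Seh1l (-0.49 and -1.09) fell in both. Gatsl2 (0.47) and the GATOR1 subunit Depdc5 (0.40) rose in TFH cells and the GATOR1 subunit Nprl2 fell in TFR cells (-0.57). Of 8 tested subunits of AMPK and its activating kinase LKB1, which lie upstream of TSC, 3 fell in TFH and 4 in TFR cells, among them Prkaa1 (-0.64 and -0.97) and Prkag2 (-0.72 and -0.80) in both, and 1, Strada (0.49), rose in TFR cells. Prkag1 also fell in both (-0.68 and -0.50), and Prkab1 fell in TFR cells (-0.63).

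Of 19 tested genes in the list of PI3K and Akt input, 4 rose and 6 fell in TFH and 1 rose and 9 fell in TFR cells. The regulatory PI3Kγ subunit Pik3r5 (-3.63 and -2.39) and the PI3K inhibitor Pik3ip1 (-2.90 and -1.47) fell in both, and the Akt phosphatase Phlpp1 rose in both (1.52 and 1.07). Pdk1, which in this list stands for pyruvate dehydrogenase kinase and is no member of the PI3K pathway, is counted among those that fell (-1.84 and -1.76). Pik3r2 (0.86) and Inpp5d (0.70) rose in TFH cells. Among 11 tested mTORC1 substrates and effectors, 1 rose and 3 fell in TFH and 2 rose and 2 fell in TFR cells, with Eif4ebp1 (0.61 and 0.82) higher and Eif4b (-1.12 and -0.56) and Larp1 (-0.79 and -0.86) lower in both, Pdcd4 lower in TFH (-0.47) and Tfeb higher in TFR cells (0.69).

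Among the partners of Txnip, 3 of 11 tested genes rose and 5 fell in TFH and 3 rose and 6 fell in TFR cells. Thioredoxin itself, Txn1, rose (1.20 and 0.90) where Txnip fell, as did the transporter Slc2a6 (5.09 and 4.29) and the reductase Txnrd2 (0.47 and 0.48), whereas the glucose transporter Slc2a3 (-1.07 and -1.06), Txnrd3 (-1.32 and -0.61) and Mlx (-0.52 and -0.86), a partner of the factor that drives Txnip, fell. The CCR4-NOT and tail-binding genes, partners of BTG and TOB proteins, had 1 of 16 higher and none lower in TFH cells. At an unadjusted p below 0.05, where the share of all genes was not counted, 5 were lower in TFH cells. In TFR cells 2 were higher and 5 lower. Cnot11 rose in both (0.66 and 0.44), Pabpc4 in TFR cells (0.46), and Cnot4 (-1.02), Parn (-0.55) and Cnot8 (-0.47) fell there.

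Of 12 tested genes for factors known to act on members of the group, 8 fell in TFH and 7 in TFR cells. Klf2 (-4.35 and -2.43) and the glucocorticoid target Tsc22d3 (-3.73 and -2.26) fell most, Foxo4 in TFH (-1.56) and Foxp1 in TFR cells (-1.24) followed, and Hif1a was the only one that rose (3.40 and 1.30). Of 15 other genes known from resting lymphocytes or as FoxO targets, 9 fell and 2 rose in each comparison, with medians of -1.38 and -1.12. Ccr7 (-4.81 and -2.36) and S1pr1 (-4.44 and -3.20) fell in both, and so did Il7r in TFH cells (-4.73), while Cited2 (1.36 and 0.72) rose in both, as did Klf4 (0.86 and 2.58), well above background on 1 of 2 Treg arrays. Of 10 tested genes known to respond to cell handling, 4 rose and 2 fell in TFH and 3 rose and 2 fell in TFR cells, with Dusp1 (1.70 and 1.18) and Nr4a1 (0.78 and 0.36) higher and Jun (-1.62 and -2.22) and Ier2 (-1.67 and -0.98) lower in both, Egr1 higher in TFH (0.93) and Hsp90aa1 in TFR cells (0.38). Their part in the values of Btg2 and Ddit4, which handling is also known to raise, was not tested.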

How the data were processed

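RNA of the sorted cells was amplified, labeled and hybridized to one-color Agilent arrays by the authors. The deposited values are background-corrected spot intensities from Agilent Feature Extraction (version 10.7.3.1 in the submitters' processing notes) with quality flags, and a table of normalized intensities. Here the authors' steps were rerun from the spots. Flagged spots, outliers among the 4 spots of a probe and spots with a pixel CV above 0.5 were excluded (86.5% to 89.2% of spots kept), spots were averaged by the geometric mean, quantile normalized, scaled to a 75th percentile of 1500 and floored at 20. The log2 values had r of at least 0.9994 with the authors' table, but bright probes read higher here (by a median of 0.47 for Btg1 and 0.38 for Ddit4, log2). A gene was its probe with the highest mean, tested where both arrays of at least 1 cell type had more than 50% of its kept spots well above background. limma 3.58.1 (R 4.3.3; lmFit, eBayes) was fitted with cell type and day, 3 residual degrees of freedom, and called genes at a Benjamini-Hochberg adjusted p below 0.05 over 15764 genes. The authors' one-way ANOVA needs replicates per day and was not used. Contrasts of TFH with Treg and of TFR with naive CD4 T cells served to order levels. Members and lists were chosen with earlier results of these data known. Named were all members, their relatives, up to 3 called genes rising and 3 falling per list and contrast that were well above background on both sides and moved alike at both days, and the 3 genes most like each member called in TFH cells. Some genes that this rule names are not reported here. The fit was tested on simulated data. Probe positions within transcripts were not analysed here.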

Additional observations from a re-analysis of the deposited data

Results flagged for a closer look

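The fall of Sesn1 differed between the Foxp3- and the Foxp3+ follicular cells. The log2 difference between TFR and Treg cells exceeded that between TFH and naive CD4 T cells by 1.71 ± 0.14 (limma adjusted p = 0.00677), with -2.35 in TFH and -0.64 in TFR cells.

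The same test, which called 8.49% of all genes, singled out 1 relative and 9 list genes named in the report. The list genes had been named for a large change in a follicular comparison on these same arrays, so their number is no separate result. Arrdc4 had a value of -1.37 (limma adjusted p = 0.038), with rises of 2.26 in TFH and 0.90 in TFR cells. Differences further below 0 in TFH than in TFR cells gave positive values for Tsc22d3 (1.46), Pik3ip1 (1.43), Il7r (4.10, with -0.63 in TFR cells, adjusted p = 0.151), Ccr7 (2.45), Pik3r5 (1.24) and Klf2 (1.92). Hif1a rose less in TFR cells (-2.10), Klf4 rose more there (1.72), and Pabpc4 had -0.29 in TFH and 0.46 in TFR cells (0.75).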

How the results depend on the processing

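Each member's difference was recomputed under 20 alternatives (18 for the day). Of 1174 values, 1061 kept their direction and side of the threshold, 44 lost a call and 15 gained one. In 54 the sign turned, in each case of a difference that was not called. Txnip in both follicular cell types, Sesn1 and Tob1 in TFH cells and Sesn1 between TFR and TFH cells were called throughout. The number of members called changed from 3 to 1 in TFR against TFH cells without the replicate block (no day term), with the slide as a block and with a log2 difference of at least 1 required, from 3 to 1 in TFR against Treg cells with that requirement, and from 0 in d25 against d12 to 1 with normexp or with probes well above background on all 8 arrays and to 2 with a trend. Leaving out 1 array gave 1 to 4 members in TFR against Treg cells, 1 to 3 in TFR against TFH cells and 0 to 2 for the difference between the follicular changes. Without the replicate block, 3 members in place of 4 were called in TFH against naive CD4 T cells. The cause was not tested.

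Signs turned with 75th percentile scaling alone for Btg2 in TFH against naive CD4 T (-0.05), Ddit4 (-0.01) and Btg1 (-0.15) in Treg against naive CD4 T cells, and Tsc1 (0.01), Tsc2 (-0.03) and Btg1 (0.37) in the difference between follicular changes. With the authors' table this held for Tsc2 there (-0.03). With no spot excluded it held for Tsc1 (0.01) and Tsc2 (-0.01) there and Btg2 in TFH against naive CD4 T cells (-0.01), with the mean of all probes for Btg1 in Treg against naive CD4 T (-0.01) and TFR against TFH cells (-0.03) and Txnip in the difference of changes (-0.00), and with the slide as a block for Sesn3 (-0.06) and Tob1 (-0.15) in Treg against naive CD4 T cells. Leaving out 1 array turned signs within these ranges. In TFH against naive CD4 T cells they were -0.21 to 0.31 for Sesn3, -0.16 to 0.01 for Tsc1, -0.64 to 0.09 for Tsc2, -0.37 to 0.01 for Btg1 and -0.03 to 0.04 for Btg2. In TFR against Treg cells they were -0.25 to 0.07 for Tsc1 and -0.61 to 0.07 for Tsc2. In Treg against naive CD4 T cells they were -0.12 to 0.21 for Sesn3, -0.51 to 0.22 for Tsc2, 0.00 to 0.38 for Btg1 and -0.09 to 0.24 for Tob1. In TFR against TFH cells they were -0.29 to 0.04 for Tsc1 and -0.08 to 0.31 for Btg1. For the difference of changes they were -0.20 to 0.13 for Arrdc3, -0.18 to 0.15 for Tsc1, -0.36 to 0.37 for Tsc2 and -0.27 to 0.12 for Btg1. For d25 against d12 they were -0.18 to 0.03 for Sesn3 and -0.21 to 0.14 for Tsc2.

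Over all genes, the number called ranged from 3267 to 7819 in TFH against naive CD4 T, 2494 to 6806 in TFR against Treg, 416 to 2064 in Treg against naive CD4 T and 942 to 4249 in TFR against TFH cells, from 292 to 1816 for the difference of changes and from 0 to 1095 between the days. Scaling to the 75th percentile moved the median of all genes in TFH against naive CD4 T cells from -0.072 to -0.132. The 2 arrays per cell type limit the precision, most for Tsc2, which was near background.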
